A study of Ovis aries with 32 samples.

Results

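The near-term phenylephrine comparison set 4 arrays of middle cerebral artery (MCA) exposed to phenylephrine (PHE) against 4 arrays of untreated MCA from the near-term sheep fetus. These 8 arrays were taken by their titles and treatment labels out of 32 in the series, which covers 4 ages with 4 untreated and 4 PHE-treated arrays each. The age label of the near-term fetus is 146 days and the study's methods give a gestational age of 140 days. The other ages, used here only for comparison, are a premature fetus of 96 days, a newborn lamb labelled as 12 hours old but given as 5 days in the methods, and an adult sheep of 2 years. PHE was applied at 10 µM for 30 min to arterial segments in an organ bath, after which the segments were frozen. The methods describe 4 animals for each experiment and a single fetus from any twin pair. They do not say whether a same-numbered treated and untreated array came from the same fetus, nor whether untreated segments spent the same time in the bath, so on these arrays the bath and the agonist cannot be told apart. By real-time PCR, the paper reports that prazosin, which blocks the receptors of PHE, inhibited the changes of its leading upregulated and downregulated genes. No array of the series is labelled as treated with prazosin. Whole cleaned arterial segments were homogenized, so each array holds smooth muscle, endothelium, adventitial cells and any blood left in the vessel.

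PHE is an agonist of the alpha-1 adrenergic receptors (Alpha1AR), which couple through Gq to phospholipase C, calcium release and protein kinase C and thereby contract the artery. The same signals reach the nucleus and switch on immediate early genes, which are transcribed without new protein synthesis and encode transcription factors of the AP-1, EGR and NR4A families. Many early genes also encode the products that end the response, such as phosphatases, inhibitors of NF-kB and proteins that destroy short-lived mRNA.

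Levels are given as log2 of the processed signal relative to the 75th percentile of the same array, so a level of 0 is the brightness of that percentile. The 8 near-term arrays varied in brightness more than the arrays of the other ages. The 75th percentile intensity was 606, 1387, 397 and 125 on untreated arrays 1 to 4, and 373, 1363, 1395 and 1683 on PHE arrays 1 to 4, and ranged from 648 to 1730 over the other 24 arrays of the series. Untreated array 4 was the dimmest of them, with a 75th percentile only 1.09 times its background, and PHE array 1 was the only dim array among the treated. Probes well above background made up 61.6, 88.4, 59.6 and 71.4% of all probes on the untreated arrays and 70.7, 71.9, 73.0 and 95.7% on the treated arrays, against 63.7 to 74.4% at the other ages. The log2 brightness was 1.21 higher on treated arrays (exact permutation test over arrays, two-sided p = 0.2857, adjusted p = 0.3492 over 10 array-level tests), and 1.70 higher with PHE array 1 left out (exact p = 0.0857; the smallest possible p is 0.0286 in both designs). All 4 treated arrays and untreated array 4 lay on the same slide, while the other untreated arrays lay on other slides, so outside that slide the slide and the treatment cannot be told apart. Values without PHE array 1 are therefore given beside those with it. In brackets, the log2 fold change with its SE and adjusted p over all arrays comes first, and the log2 fold change without PHE array 1 follows. The 74 altered genes that are named below were all altered in the same direction without PHE array 1, so the p of that fit is printed mainly for genes that did not pass.

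**Figure D1:**
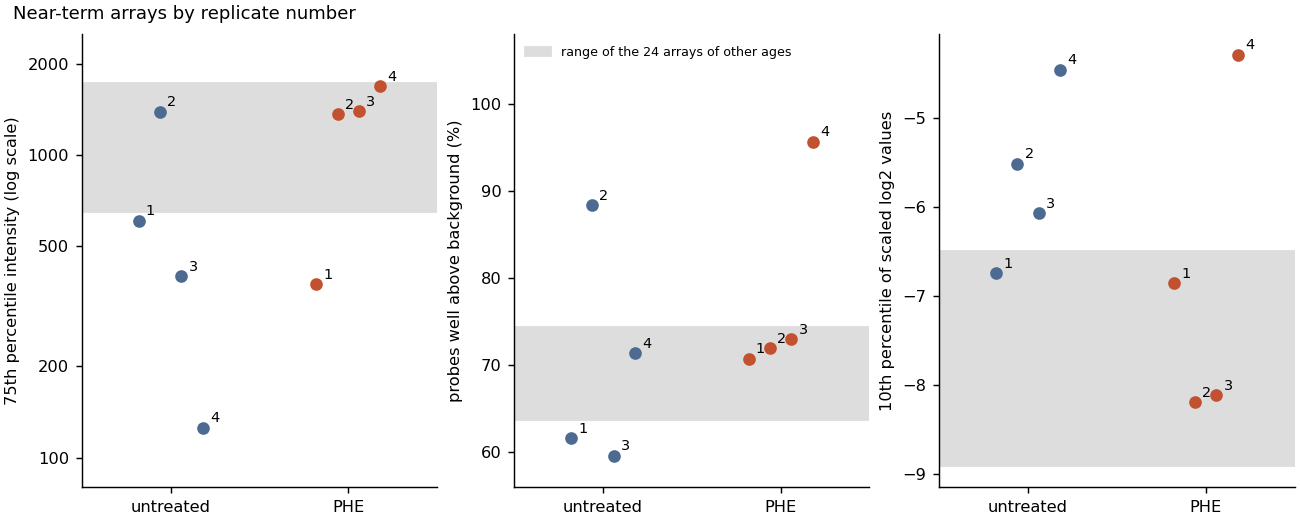
Brightness of the 8 near-term arrays: 75th percentile intensity (log axis), share of probes well above background (%) and 10th percentile of the scaled log2 values, with points numbered by replicate and the range of the 24 arrays of the other ages in grey. Untreated arrays 1 (606), 3 (397) and 4 (125) and PHE array 1 (373) lie below the grey range of intensity, and PHE array 4 has the highest share of probes well above background (95.7%).

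PHE altered 264 of 9538 genes tested in the near-term MCA (2.77%), at an adjusted p under 0.05 and at least a 1.5-fold difference by limma. Of these, 234 were upregulated (2.45%) and 30 were downregulated (0.315%). The upregulated genes rose by a median of 2.91 on the log2 scale (1.26 to 8.52), and 50 of them rose 16-fold or more. The downregulated genes had a median log2 fold change of -1.63 (-2.95 to -1.28), and 2 of them fell 4-fold or more. The 264 genes had no overlap between the 4 treated and the 4 untreated arrays, a separation seen in 1276 of all 9538 genes tested (13.4%). Among the 234 upregulated genes, 147 were well above background on every untreated array, 87 entered the test only through the treated group, and 7 were well above background on no untreated array. The 30 downregulated genes were well above background on all 8 arrays.

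Leaving out PHE array 1 raised the number of altered genes to 1366 of 10135 (13.5%), with 692 upregulated (6.83%) and 674 downregulated (6.65%). The 264 genes were all among them and had the same direction. Of the 651 genes upregulated without this array that were also tested with it, 614 had a PHE array 1 level above the untreated mean, at a median of 49.0% of the shift on the other treated arrays. For the 673 downregulated genes the array moved the same way in 510, at a median of 17.5% of the shift. These genes were chosen for a large shift on PHE arrays 2 to 4 against the same untreated arrays, which favours a smaller shift on PHE array 1, so the shares are a description only. The count also depended on other arrays: it was 64 without untreated array 1, 408 without untreated array 2, 85 without untreated array 3, 240 without untreated array 4, 72 without PHE array 2, 78 without PHE array 3 and 115 without PHE array 4. Of the 264 genes 60, all upregulated, passed whichever array was left out, and of the 74 altered genes that are named below 31 did, so the arrays whose removal ended a call are given with the others. With slide as a block, which leaves the treated arrays to be compared with untreated array 4 alone, 9 genes were altered, all among the 264, and 25 without PHE array 1. In that fit the 264 genes had a median log2 fold change of 2.70 for the upregulated and -1.41 for the downregulated genes, in the direction that the lack of overlap already fixed. That fit rests on 1 untreated array, so its counts are a description only, and only its fold changes are given, for some of the genes below. They were lower than with all arrays for IL8 (4.83 against 6.96), IL6 (5.71 against 7.36) and SOCS3 (5.37 against 7.12). TNF (2.76 against 4.19), CDKN1A (4.58 against 6.11) and JUN (2.91 against 3.99) were also lower. The fold changes of CEBPD (5.03 against 4.44), BTG2 (6.31 against 5.71) and PTGS2 (5.63 against 5.49) were higher.

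**Figure D2:**
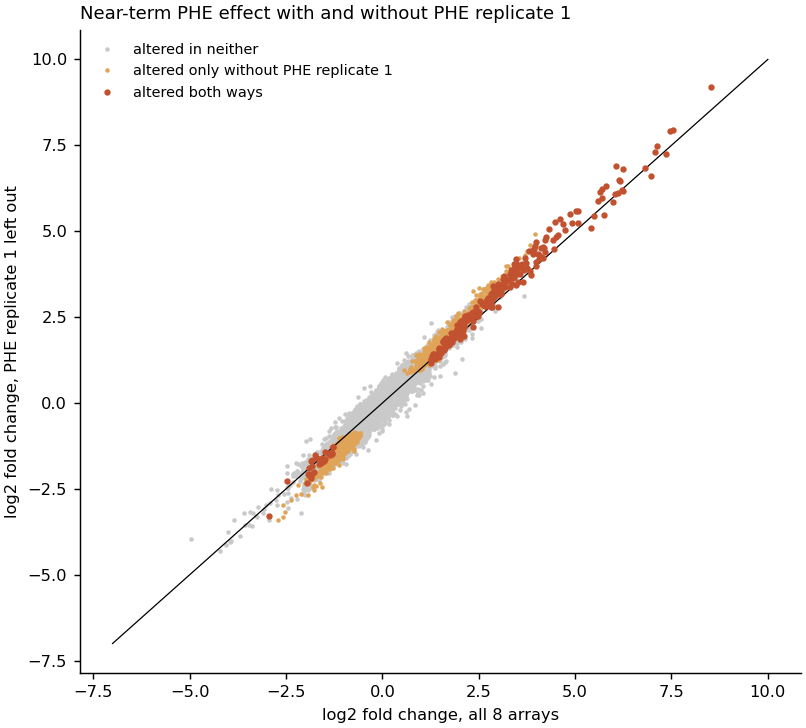
Log2 fold change of PHE against untreated with all 8 arrays (horizontal) and with PHE array 1 left out (vertical), for each gene tested both ways, with the line of equality. The 264 genes altered both ways lie at the upper right and lower left, and the genes altered only without PHE array 1 lie mostly beyond the line, farther from 0 on the vertical axis.

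Gene symbols were available for 1944 of the tested genes. In this subset 193 were upregulated (9.93%) and 25 downregulated (1.29%), and without PHE array 1 the shares were 21.2% and 16.6% of 2016 genes. Both shares are above those over all genes. Of the 15008 probes, 1742 could be named only by matching group means to the study's lists of altered genes, and 189 of the 218 altered genes with a symbol carry such a name. Neither a count of altered list members nor the signs or the median of a list is therefore independent evidence of a direction. Over the 446 genes named from the array's own files or from accessions, 30 were upregulated (6.73%). The counts of each gene list below are to be read beside these shares, and the count with independent names is given for each list that had any.

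With all arrays, the AP-1 and other immediate early transcription factors were the list with the highest share of altered members. Without PHE array 1 all 3 metallothioneins tested were altered, 2 upregulated and 1 downregulated. Of 15 members tested, 12 were upregulated and none was downregulated, with a median log2 fold change of 4.87 (13 upregulated and a median of 5.23 without PHE array 1), against -0.09 over all genes tested. On every untreated array 12 of the 15 were well above background, and 9 of these were upregulated. With independent names, 7 of 7 were upregulated.

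FOS, the inducible partner of JUN in the AP-1 complex, had levels of -2.97, -1.79, -3.14 and -2.50 on the untreated arrays and 3.71, 4.22, 5.82 and 6.02 on the treated arrays. The groups were far apart, and PHE array 1 was the lowest of the treated. FOS rose by 7.54 ± 0.57 (SE) on the log2 scale, 186-fold, with an adjusted p of 0.000275, and by 7.95 without PHE array 1 (adjusted p = 0.000661). JUN measured 0.56, -0.09, 0.72 and 1.83 untreated and 4.73, 4.11, 5.55 and 4.58 with PHE. All 4 treated arrays lay well above the untreated arrays, including PHE array 1. JUN rose 15.9-fold (log2 fold change 3.99 ± 0.46, adjusted p = 0.00309, and 3.99 without PHE array 1, adjusted p = 0.0119). JUNB, an AP-1 subunit that can restrain JUN, was tighter, at -1.12, -0.89, -0.79 and 0.40 untreated and 5.24, 5.24, 5.48 and 5.77 with PHE. It rose by 6.03 ± 0.37 (adjusted p = 7.27e-05, and 6.10 without PHE array 1), and by 5.04 with slide as a block.

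JUND, the AP-1 member that most cells express without stimulation, overlapped between groups. Its levels were 5.73, 5.28, 6.65 and 6.44 untreated and 7.58, 7.11, 6.09 and 6.57 with PHE, and its difference of 0.81 ± 0.43 did not pass (adjusted p = 0.263, and 0.56 without PHE array 1, adjusted p = 0.39).

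ATF3, a stress-responsive CREB family factor, measured -3.37, -2.65, -4.07 and -3.35 on untreated arrays, 2 of which were well above background, and 3.15, 5.61, 5.65 and 6.24 with PHE. PHE array 1 was lower than the other treated arrays by more than 2 log2 units and still far above every untreated array. The log2 fold change was 8.52 ± 0.64 (adjusted p = 0.000275), and 9.19 without PHE array 1 (adjusted p = 0.000105). EGR1, a zinc finger factor induced by growth signals, went from -2.26, -1.82, -1.80 and -0.86 to 3.46, 4.08, 5.21 and 5.09, a 70.9-fold rise (6.15 ± 0.47, adjusted p = 0.000276, and 6.48 without PHE array 1). NR4A1, an orphan nuclear receptor, went from -3.16, -2.21, -2.71 and -1.04 to 3.79, 5.66, 5.25 and 6.0, a 176-fold rise (7.46 ± 0.58, adjusted p = 0.000304, and 7.92 without PHE array 1). Neither gene overlapped between groups, as held for all 264 altered genes. Its relative NR4A2 had a small difference, from 0.23, 0.26, -0.00 and -0.04 to 1.11, 1.41, 0.95 and 1.29, which passed only without PHE array 1 (1.08 ± 0.25, adjusted p = 0.0548, and 1.10 without PHE array 1, adjusted p = 0.0333). ETS2, a target of MAP kinases, rose by 3.46 ± 0.48 (adjusted p = 0.00775, and 3.92 without PHE array 1). With slide as a block the rises of FOS, ATF3, EGR1 and NR4A1 were 7.44, 8.51, 5.32 and 6.22, against untreated array 4 alone.

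**Figure D3:**
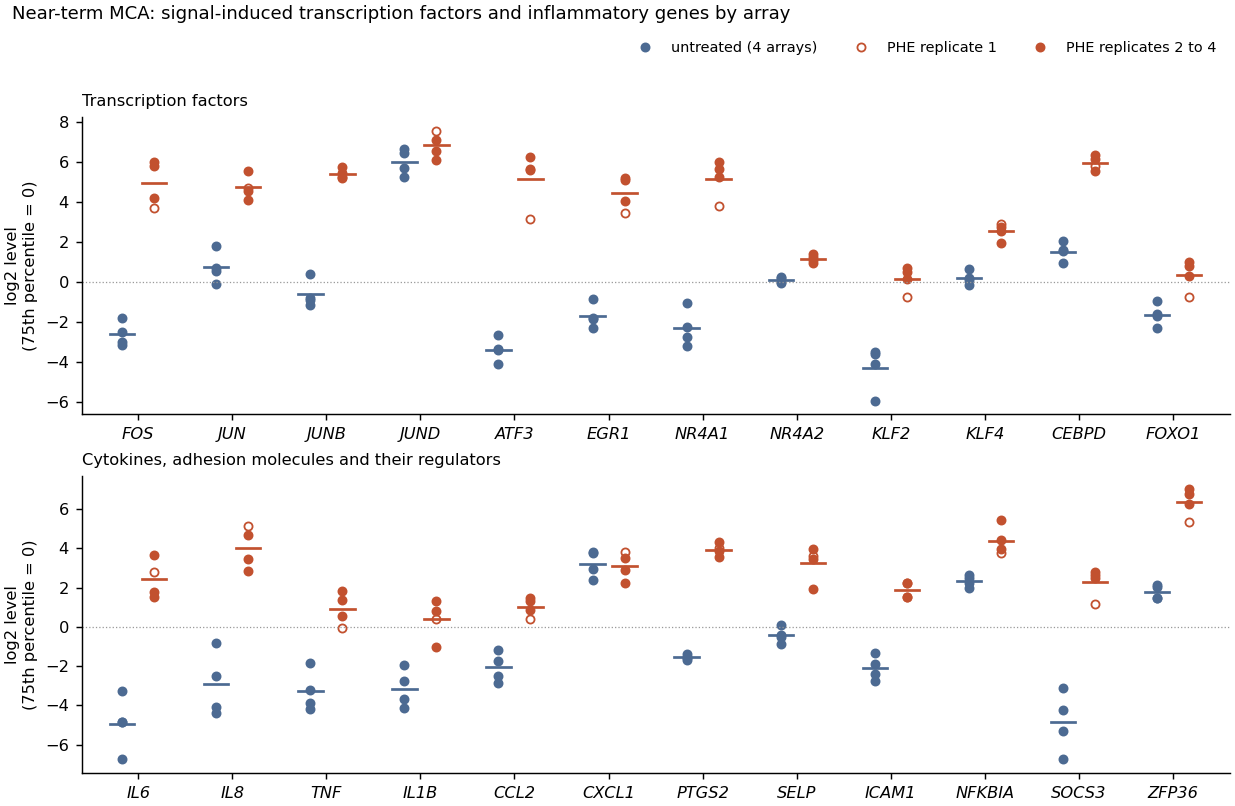
Log2 level (75th percentile of the array = 0) of transcription factors (upper panel) and of cytokines, adhesion molecules and their regulators (lower panel) on each near-term array. Blue points are untreated arrays, filled orange points PHE arrays 2 to 4, open points PHE array 1, and bars the group means. The groups are separate for FOS, JUN, JUNB, ATF3, EGR1, NR4A1 and PTGS2, and overlap for JUND and CXCL1.

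Of 16 other signal-induced transcription factors tested, 10 were upregulated and none downregulated, with a median log2 fold change of 2.43, and 12 were upregulated without PHE array 1. On every untreated array 11 of the 16 were well above background, and 6 of these were upregulated, while the other 5 entered the test only through the treated group. With independent names, 2 of 5 were upregulated. KLF10, a TGF-beta inducible factor, rose by 6.25 ± 0.81 (adjusted p = 0.00518, and 6.80 without PHE array 1), from -5.40, -2.74, -6.07 and -3.52, of which 1 array was well above background, to 0.18, 2.58, 1.94 and 2.58. CEBPD, an acute-phase regulator, went from 1.61, 2.05, 1.55 and 0.95 to 5.82, 6.35, 5.58 and 6.17. Its treated arrays spanned less than 1 log2 unit, and PHE array 1 was within them. CEBPD rose 21.7-fold (4.44 ± 0.32, adjusted p = 0.000228, 4.49 without PHE array 1, and 5.03 with slide as a block). CEBPB, its relative, rose by 2.95 ± 0.38 (adjusted p = 0.00518, and 3.19 without PHE array 1), and BHLHE40, a repressor tied to the circadian clock, by 3.84 ± 0.36 (adjusted p = 0.000983, and 3.84 without PHE array 1).

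The Krueppel-like factors KLF2 and KLF4, known for restraining inflammation in the vessel wall, both rose. KLF2 measured -5.92, -3.60, -4.08 and -3.47 untreated, where 1 of 4 arrays was well above background, and -0.75, 0.16, 0.51 and 0.71 with PHE (4.43 ± 0.57, adjusted p = 0.00518, and 4.73 without PHE array 1). KLF4 was well above background on every array and went from 0.13, -0.16, 0.19 and 0.66 to 2.92, 2.57, 1.98 and 2.75, a 5.09-fold rise (2.35 ± 0.31, adjusted p = 0.00582, and 2.23 without PHE array 1, adjusted p = 0.0133). PHE array 1 had the highest KLF4 level of the 8. FOXO1, a forkhead factor of the insulin pathway, was at -1.56, -0.92, -2.29 and -1.67 untreated and -0.71, 1.01, 0.30 and 0.81 with PHE. PHE array 1 was only just above the highest untreated array, and FOXO1 passed only without it (1.96 ± 0.44, adjusted p = 0.0535, against 2.32 and 0.0201). HES1, a Notch target, likewise passed only without PHE array 1, whose level of -1.18 lay below all untreated arrays (2.36, adjusted p = 0.128, against 3.27 and 0.0119).

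Cytokines and chemokines were largely below background in untreated MCA. Of 28 members on the array 12 could be tested, 9 of them only through the treated group. Of these, 7 were upregulated and none downregulated (8 without PHE array 1), and with independent names 4 of 8 were upregulated. Since 9 of the 12 passed the filter through the group where they were bright, the count is not evidence that cytokines as a class rose. IL6, a cytokine made by stimulated vascular cells, had levels of -6.75, -4.84, -4.82 and -3.28 untreated, where 1 array was well above background, and 2.80, 1.51, 1.77 and 3.66 with PHE. The treated arrays were all bright, and PHE array 1 was the second highest. IL6 rose by 7.36 ± 0.73 (adjusted p = 0.00141, and 7.24 without PHE array 1, adjusted p = 0.0084). IL8, a neutrophil chemoattractant, went from -4.06, -2.50, -4.38 and -0.80 to 5.11, 2.82, 4.70 and 3.47, a rise of 6.96 ± 0.82 (adjusted p = 0.00332, and 6.60 without PHE array 1).

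TNF, an inducer of NF-kB, measured -4.20, -3.21, -3.86 and -1.85 untreated and -0.08, 0.57, 1.80 and 1.34 with PHE. Its rise was 4.19 ± 0.58 (adjusted p = 0.00781, and 4.52 without PHE array 1). IL1B, which acts with TNF on endothelium, went from -4.16, -2.75, -3.70 and -1.95 to 0.41, -1.01, 1.32 and 0.80. PHE array 2, not array 1, was the lowest treated array for IL1B. The IL1B rise of 3.52 ± 0.61 had an adjusted p of 0.0218 (3.51 without PHE array 1), and the call was lost without untreated array 1, untreated array 3, PHE array 3 or PHE array 4, with a log2 fold change of 3.18 to 3.99 over all fits that left out an array. The monocyte chemoattractant CCL2 rose by 3.08 ± 0.42 (adjusted p = 0.00765, and 3.28 without PHE array 1) and the chemokine CCL4L1 by 5.75 ± 0.69 (adjusted p = 0.00361, and 5.46 without PHE array 1). Of the upregulated cytokines and chemokines, only CCL2 was well above background on every untreated array. The sizes of the other rises, those of TNF, IL8 and CCL4L1 included, therefore rest on dim untreated levels. CXCL1, another neutrophil chemoattractant, overlapped between groups, at 2.92, 2.38, 3.75 and 3.82 untreated and 3.83, 2.22, 2.89 and 3.50 with PHE (-0.11 ± 0.46, adjusted p = 0.899, and -0.35 without PHE array 1, adjusted p = 0.639).

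Of 14 receptors for these cytokines tested, TNFRSF12A, the receptor of the TNF family ligand TWEAK, was upregulated (2.67 ± 0.44, adjusted p = 0.0182, and 2.82 without PHE array 1; lost without untreated array 1 or 3, 2.22 to 2.93), and the remaining 13 did not pass. This share was close to that of all genes with a symbol. Without PHE array 1, IL1R1 and TNFRSF1A also passed, at 2.28 (adjusted p = 0.0404) and 1.61 (adjusted p = 0.0333). None of the 7 receptors with independent names was altered.

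In the NF-kB pathway 5 of 12 members tested were upregulated, none was downregulated, and the median log2 fold change was 1.62 (7 upregulated without PHE array 1; 1 of 3 with independent names). Only 6 of the 12 were well above background on every untreated array, and 2 of these were upregulated, so the count rests mostly on members that entered the test through the group where they are bright. The 5 were the inhibitors NFKBIA and NFKBIZ, the subunits RELB and NFKB2 and the inhibitor of apoptosis BIRC3, which are all NF-kB targets themselves. NFKBIA, which holds NF-kB in the cytoplasm, measured 2.25, 2.48, 2.66 and 1.97 untreated and 3.76, 3.96, 4.41 and 5.42 with PHE. The groups were separated by about 1 log2 unit. The rise of 2.05 ± 0.39 had an adjusted p of 0.0319 (2.26 without PHE array 1), and the call was lost without untreated array 1, 3 or 4 or PHE array 2 or 3 (1.70 to 2.26). NFKBIZ rose by 4.07 ± 0.62 (adjusted p = 0.0121, and 4.18 without PHE array 1; lost without untreated array 1 or PHE array 3, 3.71 to 4.55) and RELB by 3.36 ± 0.51 (adjusted p = 0.0121, and 3.46 without PHE array 1; lost without untreated array 1 or PHE array 2, 3.05 to 3.72). NFKB2 rose by 2.52 ± 0.51 (adjusted p = 0.0379, and 2.96 without PHE array 1), with 1 untreated array well above background, and was at -0.22 with normexp background correction. BIRC3 rose by 2.08 ± 0.41 (adjusted p = 0.0348, and 2.32 without PHE array 1). Both lost their call without untreated array 1, 3 or 4 or PHE array 2, 3 or 4 (2.30 to 2.96 and 1.77 to 2.32). The main subunit NFKB1 did not pass, from -0.32, -0.47, -0.67 and -0.84 to 0.42, -0.27, -0.46 and -0.23 (0.45 ± 0.29, adjusted p = 0.346, and 0.26 without PHE array 1, adjusted p = 0.494). The kinase IKBKB, which marks NFKBIA for destruction, was at 0.10, -0.12, 0.30 and -0.39 untreated and 1.37, 1.48, 0.39 and 1.58 with PHE, and did not pass either way (1.23 ± 0.34, adjusted p = 0.0796, and 1.17 without PHE array 1, adjusted p = 0.0699).

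Of 8 members of the JAK-STAT pathway and its inhibitors, the 2 upregulated were both inhibitors, SOCS3 and CISH, with and without PHE array 1. Both entered the test only through the treated group, and none of the 5 members well above background on every untreated array was altered. The 1 member with an independent name was not altered. SOCS3, which ends IL6 signalling, rose by 7.12 ± 0.73 (adjusted p = 0.00164, and 7.49 without PHE array 1), from -6.75, -4.25, -5.32 and -3.10, where 1 array was well above background, to 1.18, 2.62, 2.50 and 2.79. CISH rose by 2.34 ± 0.35 (adjusted p = 0.0106, and 2.40 without PHE array 1; lost without untreated array 1, 2.13 to 2.53). STAT3, the transcription factor that IL6 activates, overlapped between groups at 3.16, 3.07, 3.23 and 2.59 untreated and 2.64, 3.11, 2.49 and 3.16 with PHE (-0.16 ± 0.29, adjusted p = 0.743, and -0.09 without PHE array 1, adjusted p = 0.856). JAK1, its kinase, had a difference of -0.84 ± 0.34 (adjusted p = 0.17, and -0.97 without PHE array 1, adjusted p = 0.101).

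Among 14 MAP kinases and dual-specificity phosphatases tested, 5 were upregulated, none was downregulated, and 7 were upregulated without PHE array 1. On every untreated array 10 were well above background, 4 of them upregulated. No member had an independent name. DUSP1, a phosphatase that inactivates p38 and JNK, measured 0.55, 0.65, 0.74 and -1.20 untreated and 1.91, 3.0, 4.52 and 4.62 with PHE. Untreated array 4 was far below the other untreated arrays, and PHE array 1 was the lowest of the treated. DUSP1 rose by 3.33 ± 0.68 (adjusted p = 0.0388), by 3.87 without PHE array 1 (adjusted p = 0.0192), and lost its call without any 1 of untreated array 1, 3 or 4 or PHE array 2, 3 or 4 (2.87 to 3.87). DUSP6, a cytoplasmic dual-specificity phosphatase, overlapped between groups (1.29, -0.44, 0.92 and -0.29 against 1.31, -0.68, 0.46 and 0.41; 0.01 ± 0.53, adjusted p = 0.997, and -0.31 without PHE array 1, adjusted p = 0.721). MAPKAPK2, a kinase downstream of p38, rose by 1.31 (adjusted p = 0.0445, and 1.42 without PHE array 1), and the feedback inhibitor SPRY2 by 1.68 (adjusted p = 0.0379, and 1.82 without PHE array 1). MAPKAPK2 lost its call without any 1 of the arrays other than PHE array 1 (1.14 to 1.42), and SPRY2 without untreated array 1 or 3 or PHE array 2, 3 or 4 (1.5 to 1.89).

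Among 5 mRNA decay factors 3 were upregulated, 4 without PHE array 1, and 1 of 1 with an independent name. The 2 that were well above background on every untreated array were both upregulated. ZFP36, which destroys cytokine mRNA through AU-rich elements, was at 2.04, 1.45, 2.14 and 1.47 untreated and 5.35, 6.23, 6.78 and 7.01 with PHE. PHE array 1 was the lowest of the treated and still more than 3 log2 units above every untreated array. ZFP36 rose 23.7-fold (4.57 ± 0.40, adjusted p = 0.000651, and 4.90 without PHE array 1, adjusted p = 0.000661). BTG2, which recruits the deadenylase complex, went from 0.45, 0.46, 1.00 and -0.17 to 5.39, 6.37, 6.14 and 6.69. It rose 52.4-fold (5.71 ± 0.37, adjusted p = 0.000104, 5.96 without PHE array 1, and 6.31 with slide as a block). ZFP36L1 rose by 3.45 ± 0.66 (adjusted p = 0.0321, and 4.01 without PHE array 1; lost without untreated array 1 or 3 or PHE array 2, 3 or 4, 3.01 to 4.01), with 1 untreated array well above background, and was at -0.18 with normexp background correction. CNOT8, a deadenylase, did not pass (-0.79 ± 0.34, adjusted p = 0.184, and -0.68 without PHE array 1, adjusted p = 0.22).

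Heat shock proteins and chaperones had 5 of 15 tested members upregulated, none downregulated, and 8 upregulated without PHE array 1 (1 of 4 with independent names). Of the 11 well above background on every untreated array 3 were upregulated. All 15 had a positive log2 fold change, with a median of 1.45 against -0.09 over all genes tested. The 4 with independent names were all positive, with a median of 1.70. The other members were named from the study's lists of altered genes, so their signs are no independent evidence of a direction. Of the 15, 4 entered the test only through the treated group. With slide as a block 11 were positive, with a median of 2.07. HSPA1A, the inducible HSP70, measured -0.64, -0.11, -1.05 and -0.52 untreated and 3.45, 3.65, 6.28 and 7.05 with PHE. PHE arrays 1 and 2 were close together and PHE arrays 3 and 4 were more than 2 log2 units higher. HSPA1A rose by 5.69 ± 0.79 (adjusted p = 0.00775, and 6.24 without PHE array 1). DNAJB1, a cochaperone of HSP70, showed the same order of treated arrays (-1.29, 0.47, 2.13 and 3.15), as did HSPA8, the constitutive relative (1.24, 3.21, 4.47 and 4.78). DNAJB1 rose by 4.47 ± 0.83 (adjusted p = 0.0291, and 5.27 without PHE array 1) and HSPA8 by 3.48 ± 0.73 (adjusted p = 0.0427, and 4.20 without PHE array 1), and each lost its call without untreated array 1, 3 or 4 or PHE array 2 or 3 (3.79 to 5.27 and 3.02 to 4.20), HSPA8 also without PHE array 4. BAG3, another HSP70 cochaperone, passed whichever array was left out (2.82 ± 0.40, adjusted p = 0.00817, and 3.17 without PHE array 1). On none of the untreated arrays was HSPA4 well above background, and it was at least 18.4-fold higher with PHE, the untreated level being set for each array at the higher of its own signal and the dimmest signal well above background (adjusted p = 0.0186; lost without untreated array 1 or 3 or PHE array 3).

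Of 3 metallothioneins tested, which bind zinc and copper, MT1A and MT2A were upregulated with and without PHE array 1. The 1 member with an independent name, MT3, was altered only without PHE array 1. All 3 were well above background on every untreated array. MT1A went from -2.22, -3.15, -2.81 and -1.35 to 3.94, 4.83, 1.89 and 3.70 (5.97 ± 0.63, adjusted p = 0.0018, and 5.85 without PHE array 1), and MT2A from -0.46, -0.57, 0.29 and 1.13 to 4.32, 5.81, 2.27 and 3.39 (3.85 ± 0.72, adjusted p = 0.0303, and 3.73 without PHE array 1; lost without untreated array 1 or 3 or PHE array 2 or 4, 3.23 to 4.41). In both genes PHE array 2 was the highest and PHE array 3 the lowest of the treated. Metallothionein genes are near-identical copies, so a probe may read more than its named gene. MT3, the brain form, went from 3.04, 2.74, 3.85 and 4.28 to 2.77, 1.89, 1.13 and 0.63, and passed, as downregulated, only without PHE array 1 (-1.87 ± 0.52, adjusted p = 0.0841, against -2.26 and 0.0306).

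PTGS2, the inducible cyclooxygenase of prostaglandin synthesis, had a small spread within each group. Its levels were -1.57, -1.40, -1.55 and -1.70 on the untreated arrays and 4.04, 3.53, 3.85 and 4.30 on the treated arrays. Neither the dim untreated array 4 nor PHE array 1 stood apart. PTGS2 rose 44.8-fold (5.49 ± 0.26, adjusted p = 1.06e-05), by 5.45 without PHE array 1 (adjusted p = 0.000165), and by 5.63 with slide as a block. It was 1 of 3 vasoactive enzymes, receptors and adhesion molecules upregulated among 14 tested, beside the adhesion molecules ICAM1 and SELP (4 without PHE array 1; 2 of 14 when named without the supplement). ICAM1, which binds leukocytes, went from -2.42, -1.36, -2.74 and -1.91 to 1.54, 1.5, 2.23 and 2.25 (3.98 ± 0.37, adjusted p = 0.000949, and 4.10 without PHE array 1). SELP, stored in endothelial granules, went from -0.43, 0.11, -0.86 and -0.50 to 3.59, 1.94, 3.95 and 3.43 (3.65 ± 0.45, adjusted p = 0.00418, and 3.53 without PHE array 1). The endothelin receptors EDNRA and EDNRB overlapped between groups (0.69 ± 0.53 and -0.40 ± 0.49, adjusted p 0.424 and 0.632, and 1.17 and -0.66 without PHE array 1, adjusted p 0.081 and 0.393).

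The signalling route of the receptor itself was thinly covered. Of 56 genes listed for alpha-1 adrenergic signalling, 8 were on the array by name and 7 were tested, with none altered, none of the 3 with independent names either, and a median log2 fold change of 1.10 (1.49 without PHE array 1). Without PHE array 1, RGS3, which shortens Gq signals, and ARHGEF1, a guanine nucleotide exchange factor, were upregulated (1.49 and 1.16, adjusted p 0.0305 and 0.0404). RGS2, another brake on Gq, had a difference of 1.72 ± 0.72 (adjusted p = 0.178, and 2.25 without PHE array 1, adjusted p = 0.0626). In the contractile apparatus 1 of 6 tested members was upregulated, and none of 4 with independent names. It was the actin crosslinker ACTN1 (3.40, 3.47, 3.13 and 2.77 against 4.22, 4.76, 4.53 and 4.37; 1.28 ± 0.27, adjusted p = 0.0443, and 1.36 without PHE array 1; lost in the 6 fits without untreated array 1, 3 or 4 or PHE array 2, 3 or 4, 1.14 to 1.37). The smooth muscle markers CNN1 and MYLK were bright on every array, CNN1 at 8.22, 7.06, 8.66 and 7.68 untreated and 8.23, 7.18, 6.76 and 6.70 with PHE, with no difference past the threshold (-0.69 ± 0.46, adjusted p = 0.362, and -1.02 without PHE array 1, adjusted p = 0.124). MYL6, a myosin light chain, was downregulated only without PHE array 1 (-1.70, adjusted p = 0.0388).

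Of 13 extracellular matrix genes tested 5 were upregulated and none was downregulated, 7 without PHE array 1 and 2 of 8 with independent names. ELN, the elastin gene, measured 2.94, 3.71, 1.28 and 3.74 untreated and 5.94, 6.50, 7.27 and 6.62 with PHE. All treated arrays were above all untreated arrays, and untreated array 3 was the lowest. ELN rose 12.7-fold (3.66 ± 0.56, adjusted p = 0.0126, and 3.88 without PHE array 1; lost without untreated array 1 or PHE array 2 or 3, 3.12 to 3.94). The fibrillar collagens COL1A1, COL1A2 and COL3A1 rose by 4.22 ± 0.89, 4.22 ± 0.83 and 3.73 ± 0.72 (adjusted p 0.0427, 0.0348 and 0.0335), by 4.41, 4.76 and 4.08 without PHE array 1, and each was highest on PHE array 3 and lost its call without untreated array 1 or 3 or PHE array 2, 3 or 4 (3.36 to 4.97, 3.69 to 4.76 and 3.35 to 4.46), COL1A1 and COL3A1 also without untreated array 4. The aggrecanase ADAMTS4 rose by 4.31 ± 0.81 (adjusted p = 0.0303, and 5.06 without PHE array 1; lost without the same 5 arrays, 3.69 to 5.06). DCN, a proteoglycan of the adventitia, overlapped between groups at 4.12, 6.08, 4.32 and 5.20 untreated and 5.86, 4.19, 5.38 and 3.02 with PHE (-0.32 ± 0.67, adjusted p = 0.789, and -0.73 without PHE array 1, adjusted p = 0.482).

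These 3 collagens are also fibroblast markers. Over the 5 fibroblast markers on the array, the collagens included, the mean log2 level was -0.18, 1.75, -1.03 and 0.66 on untreated arrays and 2.73, 2.57, 3.95 and 2.55 with PHE, a difference of 2.64 (exact permutation p = 0.0286, the smallest possible, adjusted p = 0.143 over 10 tests), and of 2.72 without PHE array 1 (exact permutation p = 0.0571). The other markers, DCN and THY1, were not altered. In bulk segments, more fibroblasts and more RNA per fibroblast cannot be told apart, and the part of adventitial tissue in the collagen and elastin results was not tested. TIMP1, which inhibits matrix proteases, overlapped between groups (-0.30 ± 0.44, adjusted p = 0.687, and -0.58 without PHE array 1, adjusted p = 0.371).

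Among 27 growth factors and matricellular proteins tested, 3 were upregulated and none downregulated, with a median of 0.38 (7 without PHE array 1; 1 of 19 with independent names). CCN1, a matricellular immediate early gene, went from 1.66, 2.23, 1.25 and -0.67 to 3.73, 4.80, 5.36 and 4.99 (3.60 ± 0.62, adjusted p = 0.0218, and 3.93 without PHE array 1; lost without untreated array 1 or 3 or PHE array 2, 3 or 4, 3.0 to 3.97). The other 2 were EPHA2, an ephrin receptor, and TNC, tenascin C (4.24 and 2.04, adjusted p 0.0379 and 0.0494, and 4.83 and 2.14 without PHE array 1), of which EPHA2 lost its call without untreated array 1 or 3 or PHE array 2, 3 or 4 (3.68 to 4.83) and TNC without any array but PHE array 1 (1.78 to 2.31). VEGFA, the endothelial growth factor, did not pass, from -2.16, -3.19, -2.81 and -1.97 to -2.06, -1.81, -1.74 and -1.18 (0.84 ± 0.35, adjusted p = 0.18, and 0.96 without PHE array 1, adjusted p = 0.117). PDGFB, a smooth muscle mitogen, was at -0.05 ± 0.59 (adjusted p = 0.967, and -0.02 without PHE array 1, adjusted p = 0.986).

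In the metabolic lists the share of altered members was near that of all genes with a symbol or rested on few genes. In hypoxia and glycolysis 1 of 17 was upregulated (3 of 17 without PHE array 1, and 1 of 9 with independent names), the glucose transporter SLC2A3, which went from 2.03, 1.64, 1.74 and 1.5 to 4.30, 4.34, 4.01 and 5.36 (2.77 ± 0.34, adjusted p = 0.00378, and 2.84 without PHE array 1), while the muscle and fat transporter SLC2A4 was at -2.13 ± 0.92 (adjusted p = 0.186, and -2.28 without PHE array 1, adjusted p = 0.183). VHL, which targets hypoxia-inducible factor for destruction, was downregulated only without PHE array 1 (-1.39, adjusted p = 0.0333). None of the 10 PPAR and retinoid receptor genes and partners passed with or without PHE array 1, nor did any of 5 with independent names, with PPARG at -1.07 ± 0.56 (adjusted p = 0.261, and -1.34 without PHE array 1, adjusted p = 0.165). In the AMP-activated kinase pathway 1 of 6 was upregulated (3 without PHE array 1, and 0 of 1 with an independent name), AKT2 (3.42, adjusted p = 0.0319, and 4.05 without PHE array 1; lost without untreated array 1 or 3 or PHE array 2, 3 or 4, 3.09 to 4.05; -0.15 with normexp background correction). In the HGF list, 3 of 6 were upregulated (4 without PHE array 1, and 1 of 3 with independent names), the adaptor CRKL, ETS2 and the cell cycle inhibitor CDKN1A. CDKN1A rose by 6.11 ± 0.70 (adjusted p = 0.00305, and 6.12 without PHE array 1), from -3.99, -1.25, -2.89 and -0.67 to 3.87, 3.92, 3.14 and 4.70, and PHE array 3 was the lowest of the treated. CRKL rose by 2.97 ± 0.58 (adjusted p = 0.0348, and 3.30 without PHE array 1; lost without untreated array 1 or PHE array 2, 3 or 4, 2.41 to 3.30). HGF itself was at 0.61 ± 0.42 (adjusted p = 0.38, and 0.42 without PHE array 1, adjusted p = 0.549).

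**Figure D4:**
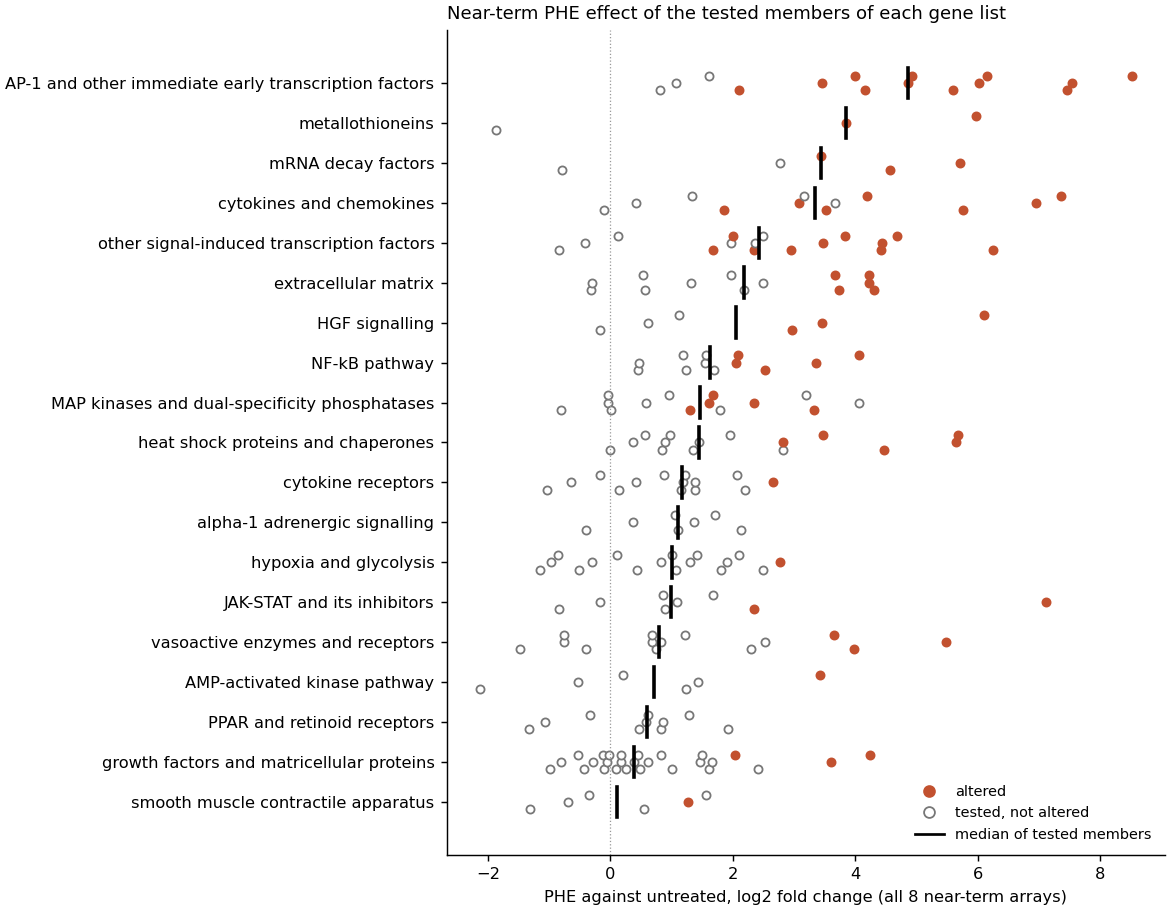
Log2 fold change of PHE against untreated (all 8 near-term arrays) for each tested member of the 19 pathway lists, ordered by list median (black bar). Filled points passed the threshold and open points did not. The immediate early list has the highest median (4.87), and no member of any list was downregulated.

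Ranked by fitted log2 fold change, the 12 largest rises among genes with a symbol also held PHLDA1, an apoptosis-related gene, and PDE4B, which degrades cAMP. The place of PDE4B rests on untreated levels near the floor, so its rank is not measured. PHLDA1 went from -4.75, -3.44, -6.07 and -5.11 to 0.39, 1.90, 1.02 and 1.98 (6.17 ± 0.58, adjusted p = 0.000973, and 6.48 without PHE array 1). PDE4B, too, was not well above background on any untreated array, measured -2.80, 0.35, -0.36 and 1.71 with PHE, and was at least 14.1-fold higher by the same rule as HSPA4 (adjusted p = 0.0112; lost without untreated array 1 or PHE array 2). PHE array 1 was the lowest treated array for both.

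The falls were smaller than the rises, and none of the 12 largest kept its call in all 8 fits that left out an array. UCHL3, a ubiquitin hydrolase, fell from -0.67, -1.15, -0.77 and -0.93 to -3.97, -3.0, -4.11 and -2.31, 5.52-fold (-2.46 ± 0.42, adjusted p = 0.0206, and -2.26 without PHE array 1). Its untreated arrays were tight and PHE array 1 was among the 2 lowest. TXNIP, which binds thioredoxin and limits glucose uptake, was at 5.00, 4.52, 5.02 and 4.35 untreated, against 2.77, 3.21, 3.59 and 2.53 with PHE (-1.70 ± 0.32, adjusted p = 0.0316, and -1.61 without PHE array 1). APOD, a lipid-binding apolipoprotein, went from 0.56, 0.18, 0.28 and 0.17 to -1.24, -2.53, -1.62 and -1.18 (-1.94 ± 0.34, adjusted p = 0.0252, and -2.08 without PHE array 1). TARDBP, the RNA-binding protein TDP-43, went from -1.11, -1.5, -1.61 and -1.33 to -3.38, -3.08, -4.05 and -2.67 (-1.90 ± 0.33, adjusted p = 0.0239, and -1.88 without PHE array 1). The groups did not overlap in any of these 4 genes, which the choice of the largest falls required. UCHL3, APOD and TARDBP lost their call without untreated array 1 or 3 or PHE array 2 or 3 (-2.81 to -2.21, -2.09 to -1.64 and -2.11 to -1.65), and TXNIP also without PHE array 4 (-1.89 to -1.53).

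The other 8 of these falls were STMN2, PSPC1, MT-ND1, RP9, CCNDBP1, JMJD6, LOC100850951 and LOC101120283, at log2 fold changes of -1.89 to -1.65 and adjusted p of 0.0283 to 0.0499, and each lost its call without untreated array 1 or 3 or PHE array 2 or 3, among others. MT-ND1, a mitochondrially encoded subunit of complex I, was at 3.16, 2.86, 3.60 and 2.64 untreated and 2.13, 0.86, 0.73 and 1.10 with PHE, with PHE array 1 nearest to the untreated arrays. STMN2, a tubulin-binding protein of neurons, was at 1.35, 0.30, 1.67 and 0.87 untreated and -0.27, -0.55, -1.29 and -1.27 with PHE.

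Markers of the other cell types in the vessel were checked on the same arrays. Of the 10 smooth muscle markers listed, 3 were on the array, CNN1 and MYLK well above background on all 8 and CALD1 on no untreated array. Their summed level, in multiples of the 75th percentile, was 180 to 587 on untreated and 143 to 389 on treated arrays (143 to 195 without PHE array 1). Of 5 endothelial markers, TIE1, which entered the test only through the treated group with 1 untreated array well above background, was upregulated (2.01 ± 0.42, and 1.96 without PHE array 1, lost in 6 fits that left out an array, 1.80 to 2.31), with a summed level of 0.43 to 1.60 untreated and 1.23 to 2.49 with PHE. ENG, another endothelial marker, passed only without PHE array 1 (1.97, adjusted p = 0.0308, against 1.73 and 0.0615). The 2 haemoglobin genes on the array had a mean log2 level of 1.27, 1.20, 1.84 and 2.09 untreated and 0.28, -0.80, 0.87 and -0.90 treated, a difference of -1.74 (exact permutation p = 0.0286, adjusted p = 0.143 over 10 tests), and of -1.88 without PHE array 1 (exact permutation p = 0.0286). HBA1 passed only without PHE array 1 (-2.83, adjusted p = 0.0187, against -2.38 and 0.052). Of 5 leukocyte markers none of 3 tested was altered, and their summed level was 1.42 to 4.77 untreated and 0.86 to 2.61 with PHE. Brain markers summed to 0.98 to 3.37 untreated and 0.45 to 1.17 with PHE (0.45 to 0.64, below all untreated arrays, without PHE array 1, where 1 of 3 tested was downregulated), and fat markers to 0.40 to 1.31 and 0.20 to 0.76. The part of these cell types in the gene results was not tested.

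To set the near-term response beside the other ages, each age was fitted on its own 8 arrays. Of the near-term upregulated genes tested there, 171 of 227 (75.3%) were also upregulated in the premature fetus, where 14.4% of all genes were, 119 of 224 (53.1%) in the newborn lamb (9.52% of all genes), and 70 of 219 (32%) in the adult sheep (1.35%). Of the 30 near-term downregulated genes, 16 were downregulated in the premature fetus (53.3%, against 14.9% of all genes), 10 in the newborn (33.3%, against 9.48%) and 2 in the adult (6.67%, against 0.249%). No gene went the opposite way in the premature fetus or the adult, and 2 upregulated and 2 downregulated genes did in the newborn. The near-term and adult arrays were scanned on a different day from the premature and newborn arrays, so the scan and the age cannot be told apart in the latter 2 comparisons.

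The near-term effect differed from the premature effect in 125 of 10273 genes (1.22%, 71 with a higher and 54 with a lower log2 fold change near term), and in 552 of 10527 without near-term PHE array 1 (5.24%). Against the newborn it differed in 283 of 10161 genes (2.79%, 218 higher and 65 lower), and in 1407 of 10492 without PHE array 1 (13.4%). Against the adult no gene passed with all arrays (0%; 1605 of 9955 at an unadjusted p under 0.05, smallest adjusted p 0.0685), and 602 of 10256 did without PHE array 1 (5.87%).

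JUN had the largest excess in the near-term fetus among the named genes tested against the premature fetus. Its 4 treated arrays averaged 0.82 in the premature fetus (untreated 0.82) and 1.11 in the newborn (untreated 1.43), with its own log2 fold change at -0.00 and -0.32 (adjusted p 0.996 and 0.229). The near-term minus premature difference was 3.99 ± 0.56 (adjusted p = 0.00546) and the near-term minus newborn difference was 4.31 ± 0.52 (adjusted p = 0.00286), with 0.00575 and 0.00218 without PHE array 1. Against the adult the difference of 2.65 ± 0.75 did not pass (adjusted p = 0.147). FOS also rose more near term than in the premature fetus (by 3.41 ± 0.68, adjusted p = 0.0281) and the newborn (by 5.25 ± 1.22, adjusted p = 0.0357), as did EGR1 (2.23 and 4.38, adjusted p 0.0469 and 0.00603). Newborn untreated FOS was scattered, from -2.62 to 2.30, and its mean of 0.25 was above every near-term untreated array. With PHE the newborn mean of FOS was 2.54, so part of the newborn difference lies in the untreated arrays. The difference of JUNB from the premature effect did not pass (0.11 ± 0.40, adjusted p = 0.933). ATF3, NR4A1, KLF2, ZFP36, DUSP1 and HSPA1A rose more than in the newborn, by 5.57, 3.95, 4.07, 2.80, 3.50 and 4.98 (adjusted p 0.00839 to 0.0393). None of their differences from the premature or adult effect passed with all arrays. ATF3 and KLF2 were not well above background on every near-term untreated array, so the sizes of their differences rest on dim baselines. Newborn untreated arrays averaged 0.29 for ATF3 and 2.67 for DUSP1, and all lay above every near-term untreated array. With PHE the newborn means were 3.24 and 2.50, so part of these differences lies in the untreated arrays. For NR4A1 and KLF2 the newborn means were -1.43 and -3.71 untreated and 2.08 and -3.35 with PHE. Without near-term PHE array 1 the differences of ATF3 (2.91), KLF2 (3.27) and ZFP36 (1.74) from the premature effect passed (adjusted p 0.022, 0.0234 and 0.022), as did that of ATF3 from the adult effect (4.15, adjusted p = 0.0327). The differences described here as passing with all arrays also passed without near-term PHE array 1. Over all genes, the 125 premature and 283 newborn differences fell to 24 and 91 without near-term PHE array 3. They fell to 48 and 158 without untreated array 1, and to 40 and 160 without untreated array 3. Whether each named difference passed in those fits is not given.

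ELN rose near term and passed at no other age, with log2 fold changes of 0.30, -0.18 and 0.02 in the premature fetus, newborn and adult (adjusted p 0.092, 0.797 and 0.993). The near-term excess passed against the premature fetus (3.37 ± 0.61, adjusted p = 0.0242) and the newborn (3.84 ± 0.78, adjusted p = 0.0216), and against the adult only without PHE array 1 (3.86, adjusted p = 0.0424, against 0.125 with all arrays). IGF-IIR, the receptor that clears insulin-like growth factor II, rose by 3.38 near term, with excesses of 2.91 and 3.01 over the premature fetus and newborn (adjusted p 0.0242 and 0.0122).

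In the AP-1 and immediate early list 3 of 15 were higher near term than in the premature fetus (71 of 10273 over all genes) and 6 of 15 than in the newborn (218 of 10161), with none lower; without near-term PHE array 1 these were 4 and 9, and 1 was higher than in the adult, against 282 of 10527, 786 of 10492 and 299 of 10256 over all genes. In the NF-kB list 1 of 12, NFKBIA, was lower than in the premature fetus (54 of 10273 over all genes) and none passed against the newborn or adult. Without near-term PHE array 1, 3 of 12 were lower than in the premature fetus (270 of 10527 over all genes). Against the newborn 2 were higher and 1 lower (786 and 621 of 10492), and against the adult 2 were higher (299 of 10256). Of the 12, 6 entered the near-term test only through the treated group, so these counts are a description only. No count is given for the cytokine and chemokine list, since most of its members were not well above background on every untreated array of the ages compared. IL1B had a fitted log2 fold change of 8.82 in the premature fetus and 7.70 in the newborn against 3.52 near term, with differences of -5.30 ± 0.70 (adjusted p = 0.00506) and -4.17 ± 0.73 (adjusted p = 0.0122). Untreated IL1B was well above background on 1 of 4 premature, 0 of 4 newborn and 2 of 4 near-term arrays, so these sizes rest on baselines near the floor, and the newborn rise is only bounded, at 151-fold or more. In the adult it was 3.45 (adjusted p = 0.148; difference 0.07, adjusted p = 0.983). The IL1B level with PHE was 3.83 ± 0.55 (SD) in the premature fetus and 2.62 ± 0.52 in the newborn, above all 4 near-term treated arrays. CCL2 and CXCL1 were well above background on every untreated array at all 3 of these ages. CCL2 rose less near term than in the premature fetus and newborn (-2.62 and -2.12, adjusted p 0.0272 and 0.0436), and CXCL1, unaltered near term, rose by 2.91 and 1.96 in those (-3.03 and -2.07, adjusted p 0.0215 and 0.0426). In the adult CCL2 and CXCL1 were at 3.49 and 0.73, which did not pass (adjusted p 0.244 and 0.149), with near-term differences of -0.41 and -0.84 (adjusted p 0.912 and 0.445). NFKBIA, CEBPB and MT1A rose less than in the premature fetus (-2.19, -2.06 and -3.73, adjusted p 0.0281, 0.0343 and 0.0272). None of the untreated arrays at the other ages had IL6 well above background, so its rise there is only bounded, at 1127-fold or more in the premature fetus, 363-fold or more in the newborn and 140-fold or more in the adult, and its differences from the near-term rise are not given. PTGS2 rose by 5.81, 5.10 and 4.31 at the other ages, and its differences from the near-term rise were -0.32 ± 0.29, 0.39 ± 0.41 and 1.18 ± 0.61 (adjusted p 0.637, 0.644 and 0.355).

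**Figure D5:**
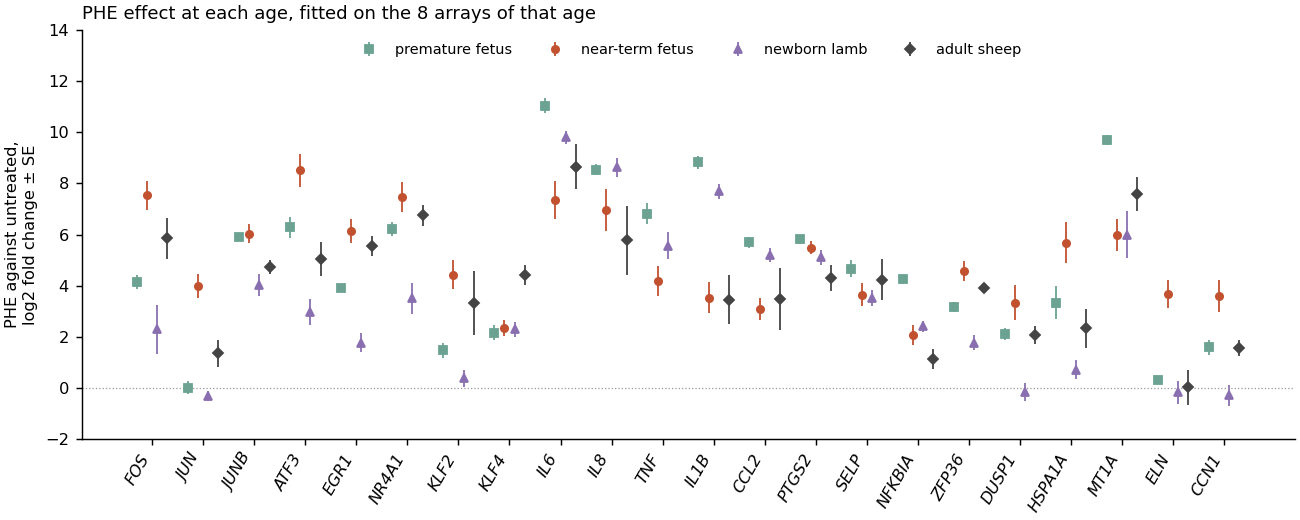
Log2 fold change of PHE against untreated (± SE) for 22 genes at each age, each age fitted on its own 8 arrays; genes not tested at an age have no point, and the points of IL6 at the other ages and of IL1B and TNF in the newborn rest on untreated arrays that were not well above background. JUN (3.99) and ELN (3.66) are highest in the near-term fetus, and IL1B in the premature fetus (8.82) and newborn (7.70).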

How the data were processed

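RNA from near-term MCA was hybridized to one-colour (Cy3) Agilent sheep arrays with 15008 non-control probes. The deposited scanner files hold intensity values per spot, background-subtracted and with no scaling between arrays; per the file headers, the authors' software was Feature Extraction version 9.5.3.1. The deposited matrix holds the same intensity values and was used as an alternative.

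Spots flagged as outliers were left out, spots of a probe were averaged, and log2 of the signal minus the array's log2 75th percentile was taken. A probe was kept when well above background on all arrays of either group, and a gene was read from its brightest probe. Groups were compared with limma 3.58.1 (lmFit and eBayes, R 4.3.3) on the 8 near-term arrays, two-sided, with Benjamini-Hochberg adjustment. This follows the methods' scaling and 1.5-fold threshold, with limma in place of the Welch test, which was run as an alternative. The methods' filter asks for signal above background in all samples within each group, whereas here all arrays of either group were enough, and the stricter reading was run as an alternative. Differences between ages used the 16 arrays of both ages. List summaries are counts and medians with no set test. Single values per array were compared by exact permutation over arrays.

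Probes were named by accession through the RefSeq table of assembly ARS-UI_Ramb_v3.0 (520), by the array files (874) or by matching group means to the study's supplementary gene lists (1742), and 11872 were unnamed. The near-term means in those lists matched the arrays with PHE array 1 left out for 1101 of 1106 genes, and with all arrays for 3. The premature list matched 1 probe for 850 of 1269 genes, the newborn list for 1012 of 1016 and the adult list for 437 of 438. Shifted values gave 50 false matches in the premature list and 0 in the newborn and adult lists. Where both sources named a probe, the supplement gave the same symbol as the accession in 54 of 60 and as the file in 131 of 176. No file used here holds probe or promoter sequences, so none is shown.

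Same-numbered arrays were not treated as pairs: the correlations of their deviations were 0.07, 0.07, -0.11 and 0.51. The p-values measure the spread between arrays, and the number of arrays limits the precision. Named genes included the 12 largest rises and the 12 largest falls. These were taken among genes with a symbol that passed with and without PHE array 1 and whose groups did not overlap. Up to 5 leading and 2 least moved members of each list with an altered member were named, with regulators that the study names. The 3 leading differences between ages in each direction were added, and up to 3 genes whose call changed most without PHE array 1. RGS2, RGS3, ARHGEF1, PPARG, TIE1, ENG and HBA1 were named after their values were seen. Some genes that these rules would name are not reported here. Members and lists were chosen with earlier results of these data known.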

Additional observations from a re-analysis of the deposited data

Results flagged for a closer look

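Over 308 checks of a group of 4 arrays, 8 found an array farther from the others than Dixon's critical value allows, and chance alone gives about 5 in 100. PHE array 1 was low for the 75th percentile intensity (8.54 on the log2 scale, against 10.41 to 10.72 on the other treated arrays) and for STAT5A (-3.03, against -2.48 to -2.40). PHE array 4 had 95.7% of probes well above background, against 70.7 to 73.0%. PHE array 3 was high for COL1A1 (5.97, against 4.24 to 4.49) and for the mean of the fibroblast markers (3.95, against 2.55 to 2.73). Untreated array 4 was low for DUSP1 (-1.20, against 0.55 to 0.74). Untreated array 3 was high for the smooth muscle kinase MYLK (7.52, against 5.38 to 5.54) and for MAPK6 (1.40, against 0.91 to 0.97).

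For 21 named genes the PHE effect differed between the near-term and the premature fetus, and for 33 between the near-term fetus and the newborn, by the limma test of the difference. All 54 differences also passed without near-term PHE array 1. Over all genes, the differences from the premature fetus and newborn numbered 125 and 283, but 24 and 91 without near-term PHE array 3. They numbered 48 and 158 without near-term untreated array 1, and 40 and 160 without untreated array 3. Which of the 54 passed in those fits is not given. The 9 with the higher log2 fold change near term than in the premature fetus were JUN (3.99), FOS (3.41), ELN (3.37), IGF-IIR (2.91), EGR1 (2.23), DDR1 (1.73), SNRNP70 (1.63), DBP (1.61) and MOBKL2A (1.55). DDR1, a collagen receptor, had log2 fold changes of 1.035 near term, which did not pass, and of -0.70 in the premature fetus and -1.09 in the newborn, which did. The 12 with the lower value near term were IL1B (-5.30), CHAC1 (-4.07), MT1A (-3.73), CXCL1 (-3.03), CCL2 (-2.62), LOC100626076 (-2.30), FKBP5 (-2.28), UCHL3 (-2.26), NFKBIA (-2.19), CEBPB (-2.06), MAPK6 (-1.26) and USP19 (-3.14). CHAC1, which breaks down glutathione, rose by 6.01 in the premature fetus and was at 1.93 near term (adjusted p = 0.0625).

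Against the newborn, 22 genes had the higher value near term: ATF3 (5.57), FOS (5.25), HSPA1A (4.98), EGR1 (4.38), JUN (4.31), KLF2 (4.07), NR4A1 (3.95), CCN1 (3.89), ELN (3.84), DUSP1 (3.50), AKT2 (3.19), PHLDA1 (3.04), IGF-IIR (3.01), ZFP36 (2.80), CRKL (2.69), STAT5A (2.13), SNRNP70 (2.12), DDR1 (2.12), GNL1 (2.10), MOBKL2A (2.02), DBP (1.56) and TSC2 (1.34). The 11 with the lower value were IL1B (-4.17), LOC100850951 (-2.76), LOC100626076 (-2.54), UCHL3 (-2.22), CCL2 (-2.12), CXCL1 (-2.07), APOD (-2.02), JMJD6 (-1.64), MT-ND1 (-1.59), FKBP5 (-1.39) and USP19 (-4.44). USP19 is placed last because no near-term, premature or newborn untreated array had it well above background, so its differences set values near the floor against each other and are no measured sizes. IL1B was well above background on 1 premature and no newborn untreated array, so the sizes of its differences rest on baselines near the floor. ATF3, KLF2 and AKT2 were not well above background on every near-term untreated array, so the sizes of their differences also rest on dim baselines. The newborn untreated means of ATF3, FOS and DUSP1 were above every near-term untreated array, so part of their newborn differences lies in the untreated arrays.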

How the results depend on the processing

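The number of altered genes (264) ran from 64 to 1366 over the fits that left out an array, the number of altered list members (68) from 35 to 99, the differences from the adult (0) from 0 to 602, from the premature fetus (125) from 24 to 552 and from the newborn (283) from 91 to 1407, and the brightness difference (1.21) from 0.59 to 1.75. The altered genes and, in brackets, list members were 1467 (105) without untreated array 4 and PHE array 1, 3447 (143) with all 32 arrays sharing a spread, 4410 (151) with the same without PHE array 1, 3919 (149) with array weights, 4003 (145) with weights and without PHE array 1, 65 (35) with no filter on dim probes, 9 (4) with slide as a block, and 71 (33) with array brightness as a covariate. They were 422 with quantile normalization and 514 with an intensity trend and robust prior, where the list members stayed within 1.5 times. Names independent of the supplement gave 22 list members, and normexp background correction 45. At an unadjusted p 2449 genes passed. The methods' t-test called 1823 genes unadjusted and 13 after Benjamini-Hochberg, and 2902 and 63 without PHE array 1. Chosen after seeing the data were 3 settings: quantile normalization without PHE array 1 (1133), slide as a block without PHE array 1 (25, list members 10), and untreated arrays 2 and 4 and PHE array 4 left out (575). With all 32 arrays the differences from the adult, premature fetus and newborn were 1204, 498 and 1241. The cause of these changes was not tested.

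With the replicate number as a block, 217 genes were altered, 169 of them among the 264, and 61 list members; same-numbered arrays did not correlate in every pair. The differences from the adult, premature fetus and newborn were then 0, 88 and 280. The other settings kept the count within 1.5 times, from 178 with normexp background correction to 320 when a probe had to be well above background on every array.

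Of 4331 values of named genes under other settings, 3401 kept their side of the threshold, 651 lost it, 276 gained it and 3 changed direction, all with normexp background correction: NFKB2 (-0.22), ZFP36L1 (-0.18) and AKT2 (-0.15). Apart from the slide block and the methods' t-test, 24 of the 74 altered named genes kept their call under all settings. The median log2 fold change of all genes was -0.09, and -0.24 with median scaling, -0.43 with normexp and -0.38 with no filter. The promoter motif description was not run. Dim probes limit the comparison: 1968 of the tested genes passed the filter only through the treated group, and untreated array 4 was barely above its background.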
